A study of Rattus norvegicus with 6 samples.

Results

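A set of 10 genes that mark lung macrophages or steer their growth and activation were followed in rat lung after bleomycin. The members were taken by gene name, namely Cd68, Mrc1, Cd163, Marco, Gpnmb, Trem2, Adgre1, Csf1r, Csf1 and Pparg, and 9 of the 10 names have rows in the table of linear RNAs. No row carries the name Marco, a scavenger receptor of alveolar macrophages, so it was not analysed here. The 9 genes are 9 of 21210 gene names with an annotated transcript, and they hold 25 of the 70376 transcripts. All samples were lungs of Sprague–Dawley rats that were 7 weeks old at the start. The 3 model rats received a single intratracheal dose of 7 mg/kg bleomycin, a drug that injures the lung and leads to pulmonary fibrosis, and the 3 control rats received saline. Lungs were collected on day 28, and 1 library depleted of ribosomal RNA was made for each rat.

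Macrophages of the lung include resident alveolar macrophages, interstitial macrophages and cells that arise from blood monocytes after injury. The growth factor Csf1 acts through its receptor Csf1r to keep these cells alive and dividing, and the nuclear receptor Pparg is needed for alveolar macrophages to mature and handle lipid. Surface receptors such as Mrc1, Cd163 and Trem2 take up sugars, haemoglobin complexes and lipids, and Gpnmb is a membrane protein of lipid-laden and repair-associated macrophages. In whole lung, fewer cells of a type and less RNA per cell cannot be told apart.

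The 6 libraries held between 35778631 and 41112682 estimated reads on the listed transcripts. Genes named after small RNA families took between 34.1% and 46.4% of all FPKM. The lung type 2 epithelial markers summed to between 4523 and 6270 FPKM in control and between 5317 and 6899 FPKM in model lungs. The leukocyte gene Ptprc lay between 23.3 and 40.0 FPKM and Tyrobp between 32.4 and 41.7 FPKM, so lung and leukocyte RNA was present in every library. Lyz2 lay between 4434 and 6127 FPKM. Pearson's r across genes was between 0.965 and 0.972 for pairs of the same group and between 0.962 and 0.976 for pairs of different groups.

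No difference between model and control lungs passed the test for any of the 9 macrophage genes. Levels are FPKM (fragments per kilobase of transcript, scaled to library size), summed over the transcripts of a gene. A call needed a limma p of at most 0.05 together with an absolute log2 ratio of group means of at least 1. By this rule 0 of 9 members were called, against 1.53% of the 19203 genes tested, and 0 of 9 had an unadjusted p of at most 0.05, against 4.9% of all genes. After Benjamini-Hochberg adjustment the limma p-values of the members were 0.934 or more, and 0 of 9 passed an adjusted p of 0.05, against 0.0104% of all genes. In 0 of 9 members did the 3 model samples lie on one side of the 3 control samples, against 10.7% of all genes. The difference was above 0 in 5 members and below 0 in 4, with a median of 0.00 on the log2(FPKM + 1) scale, where the median of all genes tested was -0.01.

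**Figure D1:**
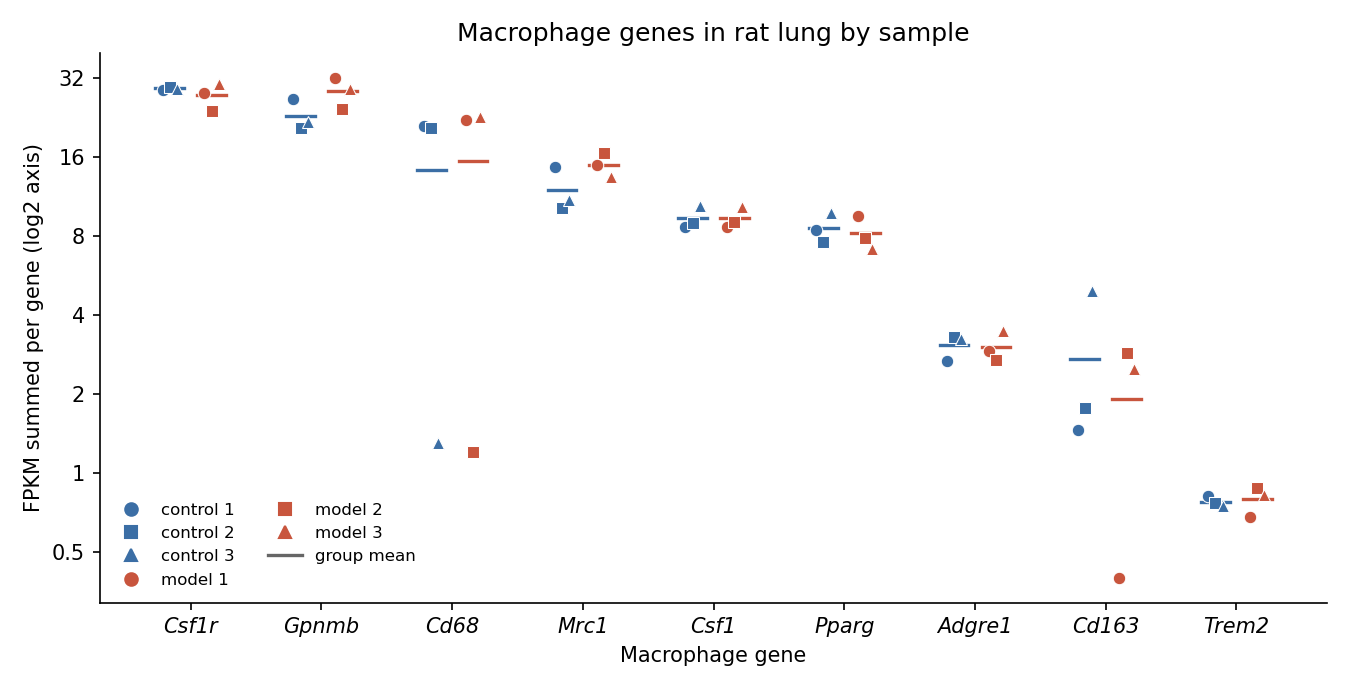
FPKM summed per gene (log2 axis) of the 9 macrophage genes in each lung, with control samples in blue, model samples in red and horizontal lines at the group means; marker shape gives the replicate number only. The groups overlap for every gene, and Cd68 stands near 1 FPKM in control 3 and model 2 while it exceeds 20 FPKM in the other 4 lungs.

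Csf1r, the receptor tyrosine kinase for Csf1 and Il34, had the highest mean of the 9 genes when all transcripts under a name were summed. The gene lies at chr18:56414488-56460395 on the plus strand in the coordinates of the files, whose build is not named in the sources used here. It measured 28.9, 29.8 and 29.1 FPKM in control and 28.1, 24.1 and 30.4 FPKM in model lungs. Model 2 was the lowest, and the other 2 model lungs lay around the control values. The difference was -0.09 on the log2(FPKM + 1) scale (95% interval -0.32 to 0.14). Its ligand Csf1 (chr2:210522375-210550546, minus strand) was at 8.68, 8.96 and 10.4 FPKM in control and 8.71, 9.10 and 10.3 FPKM in model lungs. The groups covered nearly the same range, and the interval of the difference was -0.26 to 0.26.

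Mrc1, the mannose receptor of alveolar and alternatively activated macrophages (chr17:81352700-81433743, plus strand), measured 14.7, 10.2 and 10.998 FPKM in control and 15.0, 16.6 and 13.4 FPKM in model lungs. Control 1 lay within the model range. The difference was 0.31 ± 0.15 (SE, log2(FPKM + 1) scale, n = 3 per group), with a limma p of 0.0791 and an adjusted p of 0.934. Gpnmb (chr4:78694447-78715683, plus strand) was at 26.7, 20.7 and 21.8 FPKM in control and 32.1, 24.5 and 29.1 FPKM in model lungs. Again control 1 exceeded the lowest model lung. Its difference was 0.30 ± 0.14 (SE), with a limma p of 0.0671 and an adjusted p of 0.934. Single lungs bore on both genes. Without control 1 the limma p was 0.0105 for Mrc1, with a difference of 0.46, and 0.0241 for Gpnmb, with a difference of 0.41. Without model 2 the p for Gpnmb was 0.0257. Without control 2 the difference was 0.22 for Mrc1, with a limma p of 0.227, and 0.23 for Gpnmb, with a limma p of 0.190, and without model 1 it was 0.21 for Gpnmb, with a limma p of 0.196. None of these fits passed the threshold on the ratio or an adjusted p of 0.05.

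Adgre1, which encodes the F4/80 antigen used to mark rodent macrophages (chr9:9431860-9585865, minus strand), lay between 2.67 and 3.31 FPKM in control and between 2.70 and 3.47 FPKM in model lungs. Trem2, a lipid-sensing receptor that signals through Tyrobp (chr9:14611561-14618013, minus strand), had the lowest level. It was at 0.817, 0.769 and 0.748 FPKM in control and 0.679, 0.878 and 0.823 FPKM in model lungs. These values rest on 37.9 to 44.7 estimated reads a library, which limits the precision, and the interval of the difference was -0.19 to 0.21.

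In order of mean summed FPKM over the 6 lungs the genes were Csf1r, Gpnmb, Cd68, Mrc1, Csf1, Pparg, Adgre1, Cd163 and Trem2. Of neighbours in this order, Pparg and Adgre1 alone had ranges that did not overlap, and Csf1r exceeded Gpnmb in 4 of 6 lungs. The order rests in part on what is summed. Csf1r includes an antisense piece, Pparg is mostly intronic pieces and Cd163 is mostly a short assembled transcript. With spliced transcripts only, Csf1r was at 25.9 and 23.8 FPKM in control and model lungs, where Gpnmb was at 23.0 and 28.6 FPKM. In the same sum Pparg was at 2.63 and 3.48 FPKM, and its values of 2.29 to 3.53 FPKM overlapped those of Adgre1, while Cd163 was at 0.519 and 0.409 FPKM, below Trem2 at 0.778 and 0.793 FPKM.

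**Figure D2:**
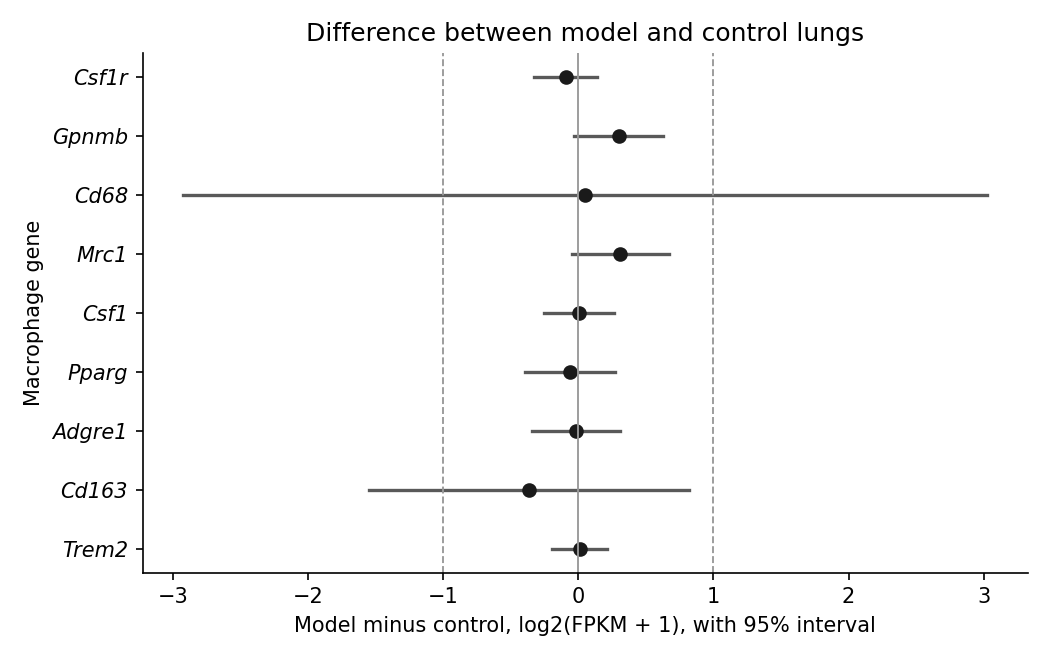
Model minus control difference on the log2(FPKM + 1) scale (x axis) for each of the 9 genes (y axis), as points with 95% intervals from limma; dashed lines mark -1 and 1. Every interval includes 0, and the interval of Cd68 runs from -2.93 to 3.03.

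Cd68, a lysosomal glycoprotein used as a general macrophage marker, split the samples in a way that did not follow the groups. It was at 21.0, 20.7 and 1.30 FPKM in control and 22.2, 1.21 and 22.8 FPKM in model lungs. Control 3 and model 2 were low, and the other 4 lungs lay between 20.7 and 22.8 FPKM. Cd68 has a single listed transcript (chr10:56268720-56270640, minus strand). The table gives it the same assembled gene as its neighbour Mpdu1, and it lists an assembled transcript of 12 exons, MSTRG.5628.1 (chr10:56261637-56270640), that spans both genes. The spanning transcript was at 2.21, 3.99 and 10.1 FPKM in control and 3.29, 9.35 and 1.70 FPKM in model lungs, so it was highest in the 2 lungs where Cd68 was lowest. FPKM was multiplied by transcript length in kilobases to give scaled fragments, a quantity that can be summed over transcripts of unequal length. The Cd68 transcript alone held 26.1, 25.7 and 1.62 scaled fragments in control and 27.6, 1.497 and 28.3 in model lungs. Mpdu1 and Cd68 together held 43.9, 45.5 and 44.6 in control and 46.6, 42.5 and 47.4 in model lungs. The sum varied little between lungs, from 42.5 to 47.4. Its group means had a log2 ratio of 0.03 and an exact permutation p of 0.7 (two-sided, 20 regroupings, smallest possible p 0.1). That p compares the groups and does not measure the spread. How reads were divided between the transcripts was not tested. The Cd68 difference was 0.05 ± 1.24 (SE) on the log2(FPKM + 1) scale, and it was -1.03 without control 3, 1.19 without model 2 and 0.11 without both.

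**Figure D3:**
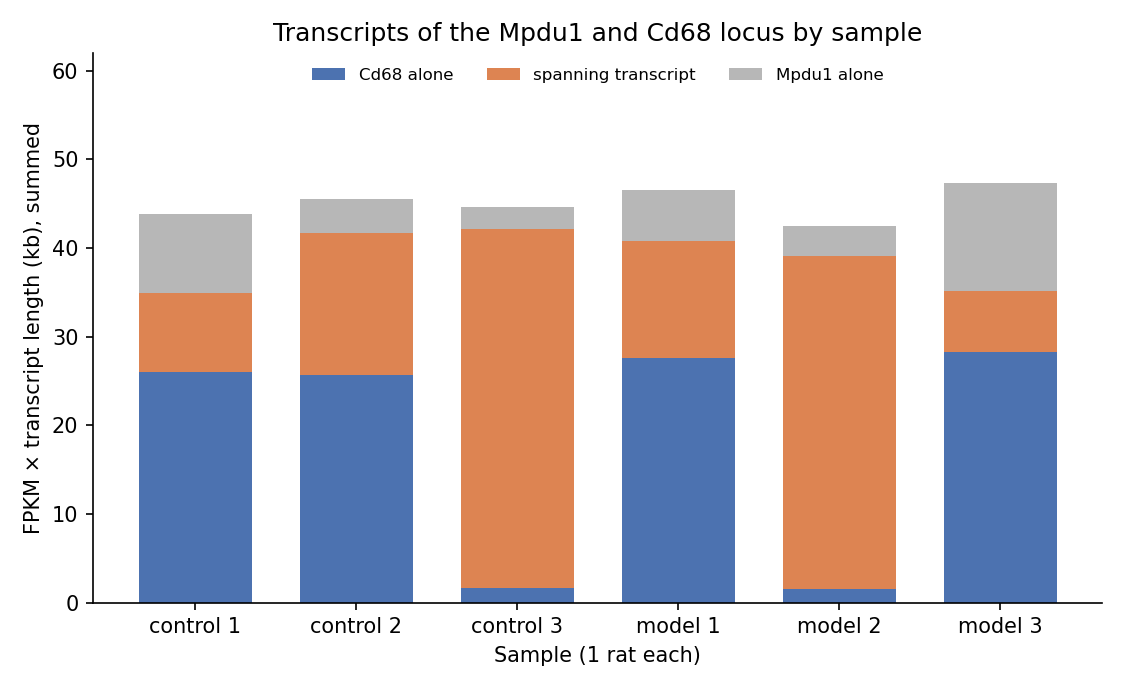
Stacked scaled fragments (FPKM times transcript length in kilobases, y axis) of Cd68, the transcript spanning Mpdu1 and Cd68, and Mpdu1 in each lung (x axis). The Cd68 bar nearly vanishes in control 3 and model 2, where the spanning transcript is largest, while the stacks reach between 42.5 and 47.4 in all 6 lungs.

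Cd163, the haemoglobin scavenger receptor (chr4:156752082-156785467, plus strand), summed to 1.46, 1.77 and 4.92 FPKM in control and 0.399, 2.88 and 2.48 FPKM in model lungs. Most of this came from an assembled transcript of 2 exons, MSTRG.26715.1, whose ends lie 415673 bases apart and which was at 1.03, 1.36 and 4.21 FPKM in control and 0, 2.45 and 2.09 FPKM in model lungs. The annotated Cd163 transcripts summed to 0.426, 0.417 and 0.714 FPKM in control and 0.399, 0.432 and 0.395 FPKM in model lungs. Both sums overlapped between the groups, and the annotated sum had an exact permutation p of 0.3.

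Of the 25 transcripts, 15 are annotated and 10 were assembled by the authors, and 23 passed the filter of FPKM above 0 in at least 3 samples. By the same rule 1 of 23 was called, against 2.98% of the 64867 transcripts tested, and it was lower in the model, as were 1.76% of all transcripts tested. An unadjusted limma p of at most 0.05 was found for 2 of 23, against 4.53% of all transcripts. These 2 of 23 were lower in the model, against 2.65% of all transcripts in that direction, and both belong to Csf1r. All 3 model samples lay below all 3 controls in 2 of 23, against 6.29% of all transcripts. They are the same 2 transcripts, and a low p makes such a separation likely, so it is no separate support. By adjusted limma p, 0 of 23 were below 0.05, against 0.0277% of all transcripts.

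The annotated Csf1r transcript ENSRNOT00000079360, of 21 exons, was at 11.5, 10.2 and 10.1 FPKM in control and 3.48, 6.82 and 6.70 FPKM in model lungs. Its difference was -0.84 ± 0.24 (SE), with a limma p of 0.0132 and an adjusted p of 0.945, and its log2 ratio of means of -0.90 did not reach the threshold. Without model 2 or model 3 the difference was -0.98 or -0.96 and the transcript was called. The called transcript, ENSRNOT00000049357, was far rarer, at 0.220, 0.224 and 0.285 FPKM in control and 0.035, 0.016 and 0.027 FPKM in model lungs. Its log2 ratio of means was -3.23, with a limma p of 0.0009 and an adjusted p of 0.428, and it rests on 2.63 to 51.4 estimated reads a library. The assembled transcript MSTRG.16846.2, of 22 exons, which starts upstream of both, was at 11.7, 14.3 and 12.5 FPKM in control and 19.98, 12.3 and 17.0 FPKM in model lungs. Its share of all Csf1r FPKM was 43.9% ± 3.84 in control and 59.4% ± 10.4 in model lungs (SD, n = 3). The share was higher in every model lung than in any control, with an exact permutation p of 0.1, the smallest that 3 against 3 can give. The gap was narrow, with control 2 at 48.0% and model 2 at 51.2%, while model 1 was at 71.1%. Shares of genes outside the members were not computed. Summed over annotated transcripts alone, Csf1r had a difference of -0.84 with a limma p of 0.0497 and an adjusted p of 0.972, and was not called. The short annotated transcript ENSRNOT00000088988, of 10 exons, was listed at 0 in model 1 and lay between 1.25 and 3.43 FPKM in the other lungs. MSTRG.16847.1, a single exon inside an intron of Csf1r and on the opposite strand, is counted in the Csf1r sum and lay between 2.98 and 4.59 FPKM, and its groups overlapped. Scaled fragments over the spliced Csf1r transcripts were 114 ± 5.11 in control and 118 ± 18.0 in model lungs (SD, n = 3), and the groups overlapped.

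**Figure D4:**
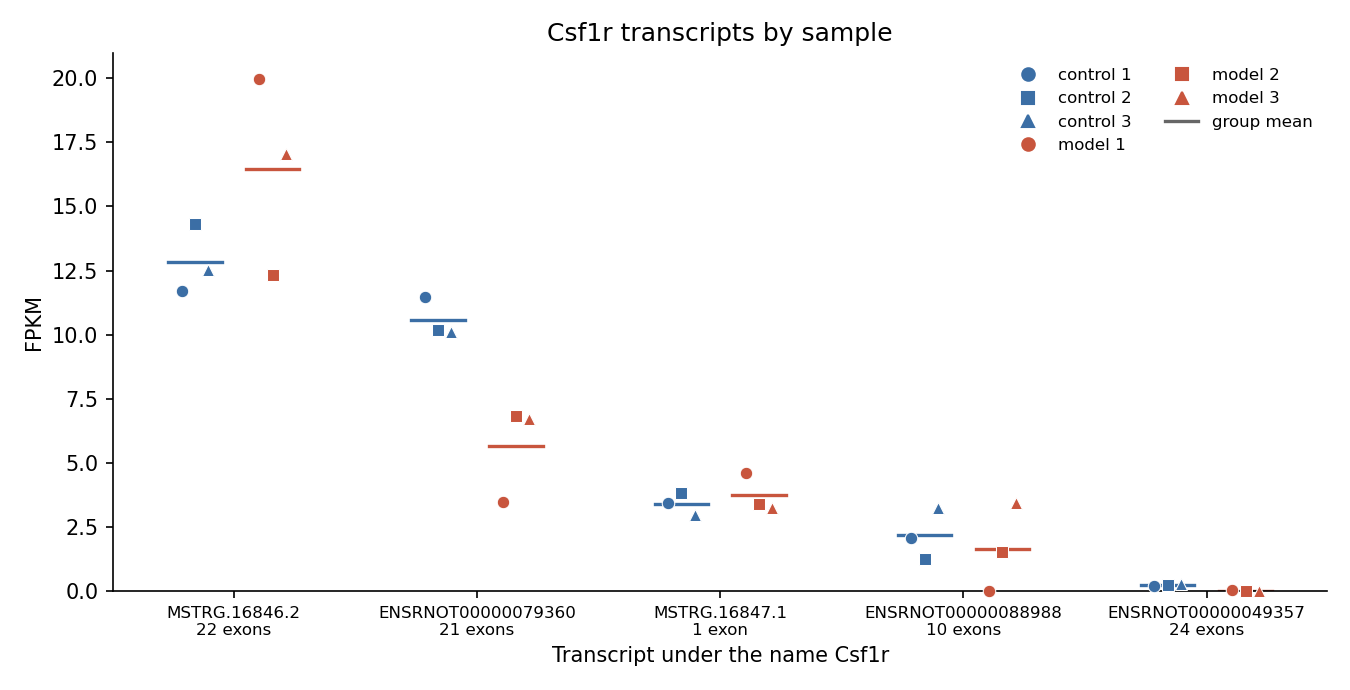
FPKM (y axis) of the 5 transcripts listed under Csf1r (x axis) in each lung, with control in blue, model in red and lines at the group means; marker shape gives the replicate number only. ENSRNOT00000079360 is lower in all 3 model lungs, while MSTRG.16846.2 reaches 19.98 FPKM in model 1 and overlaps between the groups.

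Csf1 has 3 transcripts, of which ENSRNOT00000025222 held 65.1% ± 24.6 of the FPKM in control and 74.9% ± 8.20 in model lungs (SD, n = 3). The shares overlapped, with an exact permutation p of 0.7. Control 1 had the lowest share, at 37.4%. In the same lung the assembled transcript MSTRG.20587.1, of 5 exons, was at its highest, 3.70 FPKM, and ENSRNOT00000081835 was at 1.73 FPKM. Neither passed the test, with differences of -0.29 and -0.01.

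Pparg (chr4:147274107-147399380, plus strand) summed to 8.43, 7.60 and 9.80 FPKM in control and 9.58, 7.89 and 7.17 FPKM in model lungs, but its 9 transcripts did not vary together. Rodent Pparg is known to have an upstream promoter, which gives Pparg1, and a downstream promoter, which gives the Pparg2 form abundant in fat cells. In the files 2 spliced transcripts start at positions 147274107 and 147275334 and 2 start downstream at 147333056 and 147333110, and 5 single-exon pieces lie inside introns. RefSeq lists 2 Pparg promoters on assembly GRCr8 that are 57714 bases apart. Their 250 bases before the start, both on the plus strand, are shown because the transcripts were grouped into an upstream and a downstream start, and the starts of the files were not placed on this assembly; capitals mark GAGGAA or its reverse complement TTCCTC, the core bound by the myeloid factor PU.1.
Pparg upstream promoter, chr4:150096808-150097057: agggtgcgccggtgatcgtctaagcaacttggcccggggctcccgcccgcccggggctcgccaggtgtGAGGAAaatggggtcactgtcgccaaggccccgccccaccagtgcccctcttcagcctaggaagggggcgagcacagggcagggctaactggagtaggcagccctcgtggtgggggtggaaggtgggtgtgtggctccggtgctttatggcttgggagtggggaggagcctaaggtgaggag
Pparg downstream promoter, chr4:150154522-150154771: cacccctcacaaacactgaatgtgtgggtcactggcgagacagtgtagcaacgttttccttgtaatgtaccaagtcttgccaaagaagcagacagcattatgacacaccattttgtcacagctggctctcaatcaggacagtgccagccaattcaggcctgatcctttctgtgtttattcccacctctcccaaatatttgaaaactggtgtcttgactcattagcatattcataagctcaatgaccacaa

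The upstream window holds 1 match and the downstream window 0. RefSeq gave 10 windows for 9 of the 10 names, Marco included, with 2 for Pparg and none used here for Csf1, and 8 of the 10 hold the motif on either strand, against 23.3% of 33469 RefSeq promoter windows of the same length. The sequences TATAAA and CCAAT were counted too, and were in 12.9% and 34% of all windows. TATAAA was in the Marco window alone. CCAAT was in those of Cd68, Mrc1, Cd163, Marco, Csf1r and the downstream Pparg promoter. None of these shares was tested. A match describes these letters only.

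Transcripts from the downstream Pparg start were at 1.09, 1.58 and 1.67 FPKM in control and 2.31, 3.05 and 2.07 FPKM in model lungs. Each model lung lay above each control, the model mean was 1.71 times the control mean, and the exact permutation p was 0.1, the smallest possible. This grouping was chosen after the values had been seen. Transcripts from the upstream start were at 1.20, 1.42 and 0.933 FPKM in control and 1.20, 0.475 and 1.33 FPKM in model lungs, and the groups overlapped. Nearly all of it was ENSRNOT00000082969, which differed by -0.19. The 5 intronic pieces summed to 6.13, 4.61 and 7.20 FPKM in control and 6.07, 4.36 and 3.77 FPKM in model lungs, and they made up most of the gene's FPKM. With spliced transcripts alone, Pparg was at 2.29, 3.00 and 2.61 FPKM in control and 3.51, 3.53 and 3.41 FPKM in model lungs. That sum had a difference of 0.31 with a limma p of 0.0352 and an adjusted p of 0.951, against -0.06 for the sum over all transcripts, and was not called. The downstream share of spliced FPKM was 54.9% ± 8.45 in control and 71.1% ± 13.6 in model lungs (SD, n = 3), which overlapped, with an exact permutation p of 0.2. Model 2 held the assembled transcript MSTRG.26540.4 at 2.94 FPKM, which was listed at 0 in the other lungs. The annotated downstream transcript ENSRNOT00000012137 was at 0.111 FPKM in that lung and between 1.09 and 2.31 FPKM in the others. The place of model 2 above the controls in the downstream and spliced sums therefore rests on MSTRG.26540.4. With annotated transcripts alone, Pparg was at 2.63 FPKM in control and 2.50 FPKM in model lungs. The difference was then -0.20, with a limma p of 0.663 and an adjusted p of 0.990. The intronic piece MSTRG.26541.1 had a difference of -0.48 and was not called, but without control 2 it was called at -0.68. The other 4 pieces, MSTRG.26542.1, MSTRG.26543.1, MSTRG.26544.1 and MSTRG.26545.1, differed by -0.23, 0.06, -0.19 and -0.03.

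**Figure D5:**
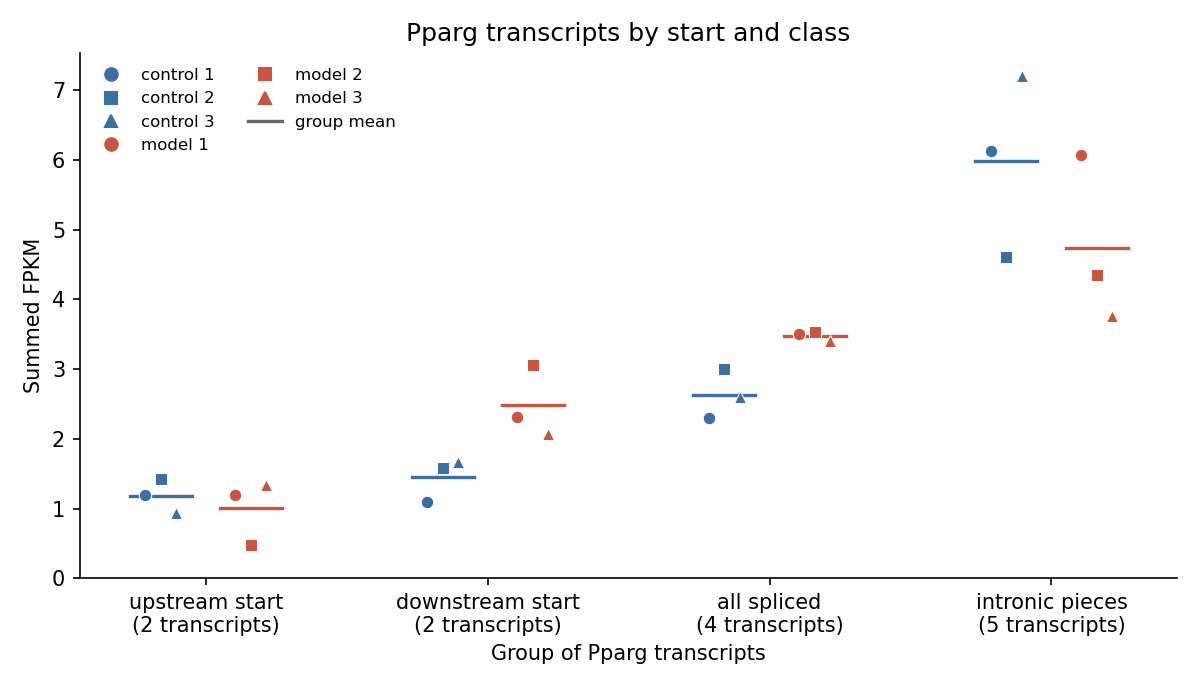
Summed FPKM (y axis) of Pparg transcripts grouped by start or class (x axis) in each lung, with control in blue, model in red and lines at the group means; marker shape gives the replicate number only. The downstream start and the spliced sum are higher in all 3 model lungs, while the upstream start and the intronic pieces overlap. In model 2 the downstream start is mostly MSTRG.26540.4, which was listed at 0 in the other lungs.

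The wider macrophage programme and the markers of other lung cells were described with 21 lists of 213 genes, of which 196 were tested. Across them 7 genes were higher and 1 was lower at an unadjusted limma p of at most 0.05, together 4.08% against 4.9% of all genes, of which 2.16% were higher and 2.73% lower. None was called and none passed an adjusted p of 0.05. The 7 higher genes were Lgals3, Bhlhe40, Bhlhe41, Tmem176b, Cd63, Ctsd and Col3a1, and the lower gene was Stat6, a mediator of alternative activation, at -0.58. They were named after their values were seen, apart from Lgals3 and Ctsd. With annotated transcripts alone Stat6 differed by -2.17, with an adjusted limma p of 0.00351, and was called, and with the length-weighted sum it differed by -0.16 with a p of 0.111 in limma. With annotated transcripts alone Bhlhe40 and Tmem176b turned to -0.0759 and -0.0289.

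Among colony-stimulating factor genes, 0 of 14 had a p of at most 0.05 and the median difference was 0.01. Il34, the second ligand of Csf1r, differed by 0.08, Csf2 by -0.28, and its receptor chains Csf2ra and Csf2rb by 0.03 and -0.06. In the Trem2 group, 1 of 9 was higher, with a median of 0.06. Its adaptor Tyrobp differed by -0.02, the kinase Syk by 0.08 and the lipid carrier Apoe by 0.06, or by 1.23 with a call when annotated transcripts alone were summed. Lgals3, a galectin of activated macrophages, was at 26.3, 21.6 and 26.6 FPKM in control and 28.8, 31.0 and 31.4 FPKM in model lungs, with a difference of 0.29, a limma p of 0.0270 and an adjusted p of 0.934.

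For alveolar macrophage genes, 2 of 18 were higher and the median was 0.09. The lipid chaperones Fabp4 and Fabp5 differed by 0.05 and 0.04, Itgax by -0.18 and Siglec1 by 0.14. The transcription factor Bhlhe41 was at 1.74, 1.65 and 1.07 FPKM in control and 2.27, 2.07 and 3.14 FPKM in model lungs, with no overlap. Groups did not overlap in 2 of these 18 genes, against 10.7% of all genes. For monocyte and interstitial macrophage genes, 1 of 16 was higher and the median was 0.00. Cx3cr1 differed by -0.12 and C1qa by 0.00, and no row carries the name Ccr2. For genes of matrix- and lipid-handling macrophages, 2 of 16 were higher, 13 of 16 differences were above 0 and the median was 0.11. The lysosomal protease Ctsd was at 92.2, 80.4 and 83.3 FPKM in control and 112, 90.1 and 111 FPKM in model lungs, with a difference of 0.28, a limma p of 0.0425 and an adjusted p of 0.934. The tetraspanin Cd63 was at 30.7, 30.3 and 30.4 FPKM in control and 37.2, 34.7 and 38.7 FPKM in model lungs. It was the 1 gene of these 16 with no overlap, against 10.7% of all genes. Spp1 differed by 0.15, the elastase Mmp12 by -0.26 and Arg1 by 0.14. Without control 1, Spp1 was called at 0.27, though its level was at most 0.361 FPKM in every lung.

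Of 12 inflammatory activation genes 0 had a p of at most 0.05, 10 differences were below 0 and the median was -0.19. Il1b differed by -0.30 and Nos2 by -0.25. Some lists of other cells leaned to 1 side as well. Of the type 2 epithelial markers 7 of 7 differences were above 0, and of the T and NK cell markers 8 of 10 were below 0. The directions were not tested. Of 14 alternative activation genes 1 was lower, and the median was -0.01. The scavenger receptor Msr1 differed by 0.55, with a limma p of 0.0803 and an adjusted p of 0.934, and by -0.28 with annotated transcripts alone. Model 3 was the highest, at 19.0 FPKM against 11.3 and 8.44 FPKM in the other model lungs, and without it the difference was 0.25. The Pparg partners and targets had 0 of 13 at this p and a median of 0.04, with Nr1h3 at 0.04. The scavenger and phagocytic receptors had 0 of 15 and a median of 0.03, with the efferocytosis receptor Mertk at -0.01. Pan-leukocyte and myeloid genes had 0 of 10 and a median of 0.06, with Ptprc at -0.30 and Lyz2 at 0.06.

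Markers of other cells that whole lung holds were counted the same way. Neutrophil markers had 0 of 6 at this p, with a median of -0.07 and S100a8 at 0.10. The medians were -0.07 for T and NK cell, -0.05 for B and plasma cell, 0.08 for dendritic cell, -0.04 for endothelial, 0.08 for type 1 epithelial, -0.06 for airway epithelial, 0.23 for cardiac muscle and 0.02 for mesothelial markers, with no gene at this p in any of them. Model 3 stood apart in some of these markers. The cardiac gene Tnnt2 was at 4.65 FPKM there and at most 0.708 FPKM in the other lungs, and the airway genes Bpifa1 and Scgb3a1 were at 95.8 and 46.99 FPKM there and at most 0.135 and 6.45 FPKM in the others. These 3 genes were picked with their values in view. Scgb1a1 and Scgb3a2, the other airway markers with values, were highest in control 3, at 7693 and 214 FPKM. They were at 6140 and 191 FPKM in model 3. Among the other cardiac markers, Myh6, Actc1, Myl7 and Tnni3 were each highest in model 3. For Tnni3 the margin was narrow, with 2.27 FPKM there and 1.96 FPKM in control 3. Type 2 epithelial markers had 0 of 7 and a median of 0.25, and fibroblast markers had 1 of 8, Col3a1, and a median of 0.17. Without model 3 the differences of Mrc1 and Gpnmb were 0.38 and 0.28, and none of the 9 macrophage genes reached a limma p of 0.05. The part of these markers in the macrophage values was not tested.

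By values centred on the mean over the 6 lungs, the genes closest to Csf1r among 8509 with a mean of at least 5 FPKM were Srcap, Rac1 and Slc10a7. The values were not scaled to equal spread, so genes that varied as little as Csf1r lie closer. Their root mean square difference from Csf1r, on centred log2(FPKM + 1), was 0.028, 0.029 and 0.029, where the median gene was at 0.168.

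Circular RNAs gave little signal for these genes. Of 5216 circular RNAs, 4 came from members, 2 from Adgre1 and 1 each from Csf1r and Mrc1. Each was seen in a single lung, with 1 back-splice read in control and 6 in model lungs in all, out of 2037 to 2964 a library. Of the 6 reads in model lungs, 5 came from model 1.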

How the data were processed

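Lungs of 3 control and 3 model rats were grouped by the labels. After trimming (Cutadapt), mapping (Bowtie2, Tophat2) and assembly (StringTie), the authors deposited FPKM per transcript; the submitters' processing notes also list HISAT2. The authors deposited the coverage of each transcript, a signal not scaled for library size, and raw counts of back-splice reads per circular RNA. The genome build is not given in the sources used here. Reads were estimated from coverage and transcript length, at 150 bases a read.

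FPKM was summed per gene name, for genes with an annotated transcript and FPKM above 0 in at least 3 samples, and log2(FPKM + 1) was compared with limma 3.58.1 (with trend, two-sided) in R 4.3.3 over all genes or all transcripts, with Benjamini-Hochberg adjustment. A call needed p at or below 0.05 with group means that differed by 1 log2 unit or more. Single values were compared by exact permutation. The fit was tested on simulated data. Spliced transcripts are those annotated or sharing a splice junction. All members, their transcripts with a mean of at least 0.5 FPKM or an unadjusted p of at most 0.05, and a set of list genes were named by rule. A list gene that the rule names is not reported here. The members and lists were chosen with earlier results of these data known. Alternatives were other pseudocounts, filters, scalings and sums, limma without trend, replicate number as a block, and omitting each lung. Promoters came from RefSeq GRCr8. SRPBM columns were not used. Python 3.11.15, pandas 2.3.3, numpy 2.4.6, scipy 1.17.1 and matplotlib 3.10.9 were used.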

Additional observations from a re-analysis of the deposited data

Results flagged for a closer look

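The circular RNA circRNA3069 of Csf1r, formed from 1 exon, had 3 back-splice reads in model 1 and 0 in the other 5 lungs. It is named because it is a signal outside the linear RNA table that was above the control level of 0. Groups of 3 samples were not tested for a sample far from the others.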

How the results depend on the processing

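The limma fits, their counts of calls and the isoform shares were recomputed under the alternatives; sums over the Cd68 locus, the Pparg starts and the annotated Cd163 transcripts, the likeness to Csf1r and the circular RNAs were not. Of 1121 recomputed values, 95 changed sign, 6 gained a call, 22 counts moved by over 1.5 times or to or from 0, and 998 kept direction and call or, for counts and shares, moved less. In 92 of the 95 sign changes the reported difference was smaller than its own standard error, so those directions are not resolved; the causes were not tested. Isoform shares were labelled by whether their difference moved by less than the SD of the groups. Their sign changes are therefore not among the 95. The difference in the Csf1 share was 9.81 points and ran from -4.00 to 19.7 with 1 lung left out. For the share of ENSRNOT00000012137 in Pparg it was 1.20 points, -1.77 with estimated reads, and -4.17 to 9.57 with 1 lung left out. 0 of 9 members were called under any alternative. Log2 differences that changed sign were as follows. With TPM, these were Adgre1 0.054, Pparg 0.0124, ENSRNOT00000073926 0.054, ENSRNOT00000081835 0.059, MSTRG.26545.1 0.0175, Csf2rb 0.0113, Tyrobp 0.0659, Mertk 0.0697. With the length-weighted sum, these were Csf1r 0.0455, Csf1 -0.0872, Pparg 0.0956. With spliced transcripts only, these were Pparg 0.31, Il34 -0.00207, Il1b 0.0267. With median-of-ratios scaling, these were ENSRNOT00000073926 0.00362. With a pseudocount of 0.1, these were ENSRNOT00000081835 0.27, Fabp4 -0.0122, C1qa -0.00346. With annotated transcripts only, these were Il34 -0.00207, Syk -0.000688, Fabp5 -0.34, Il1b 0.0267, Msr1 -0.28, Bhlhe40 -0.0759, Tmem176b -0.0289. With 1 lung, or control 3 and model 2 together, left out, the ranges of results that changed sign were, for genes Cd68 -1.03 to 1.19, Cd163 -0.64 to 0.0993, Trem2 -0.0354 to 0.0578, Adgre1 -0.0929 to 0.0753, Csf1 -0.0603 to 0.0929, Pparg -0.17 to 0.0459. For transcripts ENSRNOT00000073926 -0.0929 to 0.0442, MSTRG.26715.1 -0.73 to 0.16, ENSRNOT00000056918 -1.03 to 1.19, ENSRNOT00000025222 -0.11 to 0.50, ENSRNOT00000081835 -0.31 to 0.44, ENSRNOT00000088988 -0.96 to 0.11, MSTRG.16847.1 -0.0283 to 0.17, ENSRNOT00000082969 -0.30 to 0.000203, MSTRG.26543.1 -0.22 to 0.20, MSTRG.26544.1 -0.49 to 0.20, MSTRG.26545.1 -0.14 to 0.11, ENSRNOT00000012137 -0.40 to 0.39, ENSRNOT00000018351 -0.0232 to 0.0578. For list genes Il34 -0.0346 to 0.23, Csf2ra -0.031 to 0.0817, Csf2rb -0.20 to 0.0651, Tyrobp -0.11 to 0.0638, Syk -0.0747 to 0.23, Apoe -0.12 to 0.19, Fabp4 -0.23 to 0.29, Fabp5 -0.35 to 0.61, Cx3cr1 -0.39 to 0.0259, C1qa -0.20 to 0.29, Il1b -0.59 to 0.0905, Mertk -0.0400 to 0.0485, Nr1h3 -0.0423 to 0.14, Lyz2 -0.0661 to 0.17.

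Members at an unadjusted p of at most 0.05 numbered 1 with the replicate block (Gpnmb), 2 with TPM, 1 with annotated transcripts, 1 with spliced transcripts, and 0 to 2 with 1 lung left out. Called member transcripts numbered 0 with a mean of at least 1 FPKM and 1 to 2 with 1 lung left out, and those at an unadjusted p of at most 0.05 numbered 1 and 2 to 4. All genes called numbered 80 with a mean of at least 1 FPKM and 519 with annotated transcripts, against 293, and all transcripts called numbered 1066 with a mean of at least 1 FPKM, against 1934. List genes called numbered 1 with the replicate block (Retnla), 3 with annotated transcripts (Apoe 1.23, Lcp1 3.04 and Stat6 -2.17) and 0 to 2 with 1 lung left out (Spp1 and Ms4a7 without control 1, Scgb3a1 without model 3), and those at an unadjusted p numbered 5 to 19. TPM moved the calls from 132 higher and 161 lower to 194 and 138 for genes, and from 794 and 1140 to 989 and 958 for transcripts. Same-numbered samples had r of 0.072, 0.033 and -0.066 between their deviations, where other pairs had r from -0.131 to 0.093. No pairing by number was seen, but 3 lungs in each group cannot exclude one. The limits to spliced transcripts and the fit without control 3 and model 2 were chosen after seeing the data.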
